A study of Mus musculus with 473 samples.

Results

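The synaptic vesicle and SNARE gene families were read in single mouse neurons that carried a tyrosine hydroxylase reporter. Members were the protein-coding features whose symbol is Syt, Stx, Vamp, Stxbp, Syngr or Rims with a number and an optional letter, together with the Snap, Syn, Sv2, Rab3 and Unc13 genes, Syp and Synpr. The rule gave 74 genes of the 21463 protein-coding and 28952 total features in the table, and it used no measured value. By role they were 17 synaptotagmins, 7 plasma membrane syntaxins, 8 other syntaxins, 7 VAMPs, 4 genes of the SNAP25 family, Snap91, 7 Stxbp genes, 7 Rims and Unc13 genes, 4 Rab3 genes, 3 synapsins, 3 SV2 genes and 6 synaptogyrins and synaptophysins.

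The cells came from Tg(Th-EGFP)DJ76Gsat/Mmnc mice on a Swiss Webster background, born to hemizygous reporter males and wild-type females, so every group carried the same transgene and there was no untreated or wild-type group. The transgene is a bacterial artificial chromosome in which sequences of the tyrosine hydroxylase gene (Th) drive EGFP, and the sort for EGFP fluorescence and against propidium iodide decided which neurons were read. The 5 groups were forebrain (FB, which the protocol places in the hypothalamus for embryos) and midbrain (MB) at embryonic day 15.5 (E15.5), each from 4 pooled animals, and FB, MB and olfactory bulb (OB) at postnatal day 7 (P7), each from 5 pooled pups. Each group was thus 1 pool of animals, cells were not replicates, and no test or p-value is given: the SD is the spread between cells. Age cannot be told apart from the longer dissociation, the density gradient, the sort and the sequencing run of the P7 cells.

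Of 473 cells, 396 passed the authors' quality control. The analysis used 249 of them, 84 and 88 from embryonic FB and MB, and 31, 30 and 16 from FB, MB and OB at P7. The other 147 stood on 2 P7 library plates whose columns fit the gene number in their labels only after the columns of these plates had been exchanged well by well, and their values are given beside the main ones as those of the exchanged plates. The total FPKM of a cell had a median of 1054297 in E15.5 FB and 972789 in E15.5 MB, against 493126 to 545503 in the P7 groups and 191477 to 276015 on the exchanged plates. Per the labels, P7 OB cells had a median of 3310 genes, against 5164 in P7 FB and 6126.5 in P7 MB. The labelled cell type, dopaminergic neuron, was checked against its markers: the median cell's sum of Th, Ddc, Slc18a2 and Slc6a3 was 15.6 FPKM in E15.5 FB and 10.7 in E15.5 MB, but 580.0, 4413 and 2100.0 in FB, MB and OB at P7. Of 6 microglial markers, 5 were listed at 0 in all 3 P7 groups, and the median cell's summed endothelial markers were at 0 in every group. The summed astrocyte markers had a median of 65.2 FPKM in P7 FB and at most 0.235 in the other groups. In P7 FB, Aldoc reached 1 FPKM in 70.97% of cells (mean 99.97 FPKM), and each other astrocyte marker in at most 12.9%. The summed oligodendrocyte lineage markers had medians from 0.4358 FPKM in P7 OB to 11.45 in E15.5 MB. The part of these markers in the results was not tested.

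Synaptic vesicles release transmitter when a SNARE complex of a vesicle VAMP (synaptobrevin) with a syntaxin and SNAP25 on the plasma membrane pulls the membranes together. Munc18 proteins (Stxbp genes) and Unc13 proteins set up the assembly of that complex, synaptotagmins sense calcium or traffic membranes, Rab3 and Rim proteins hold vesicles at the active zone, and synapsins tether the reserve of vesicles. SV2 proteins, synaptophysins and synaptogyrins are membrane proteins of the vesicle itself. In dopamine neurons the same families serve release from axons and from dendrites, and many members come as paralogs that differ in calcium affinity, place in the cell or cell type.

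A common core of the families was abundant in every group. Mean FPKM, which is scaled per length of transcript so that genes can be set side by side, was 1 or more in at least 1 group for 68 of 74 members and in every group for 50. It was 100 or more in every group for 10, among them Syt1, Syt11, Vamp2, Snap25, Snap47, Rab3a, Syn1, Syngr3 and Syp. In P7 MB 20.3% of the members reached a mean of 100 FPKM, against 4.09% of all protein-coding features, and in E15.5 FB 29.7% against 11.0%. Syt8, Vamp5 and Syngr4 were listed at 0 in every analysed cell, and Syt15, Stx19 and Vamp9 stayed under 1 FPKM in every group mean.

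Vamp2, the main neuronal synaptobrevin, was found at 1 FPKM or more in all 249 cells, with group means of 385 ± 328 and 387 ± 361 FPKM in embryonic FB and MB, and 263 ± 152, 309.9 ± 113 and 469.9 ± 265 in FB, MB and OB at P7. Rab3a, the most abundant Rab3 GTPase gene here, was likewise found in every cell, with means from 444 FPKM in P7 MB to 695 in E15.5 FB, although its exons overlap Mpv17l2 on the other strand. These group ranges overlapped for both genes.

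The other leading members followed by role. Syt1, the fast calcium sensor of release, had means from 187 FPKM in E15.5 MB to 762 in P7 OB, and Syt11, a synaptotagmin that does not bind calcium, kept within 204 to 332. Snap25, the plasma membrane partner of the fusion complex, ranged from 354 FPKM in E15.5 MB to 712 in P7 OB, whereas Snap47, a relative without a membrane anchor, was highest in E15.5 MB (705) and lowest in P7 OB (238). Stx1a, a syntaxin of the neuronal complex, had means of 51.9 to 224 FPKM. Among the endosomal syntaxins Stx7 and Stx12 led, at 50.7 to 227 and 23.9 to 158 FPKM. The vesicle protein gene Syp ranged from 242 to 443 FPKM and Syngr3 from 169 to 418. Vamp4, a VAMP of the trans-Golgi and endosomes, was next to Vamp2 in its family and kept within 32.1 to 48.01 FPKM. The clathrin adaptor gene Snap91 had means of 67.7 to 112 FPKM.

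**Figure D1:**
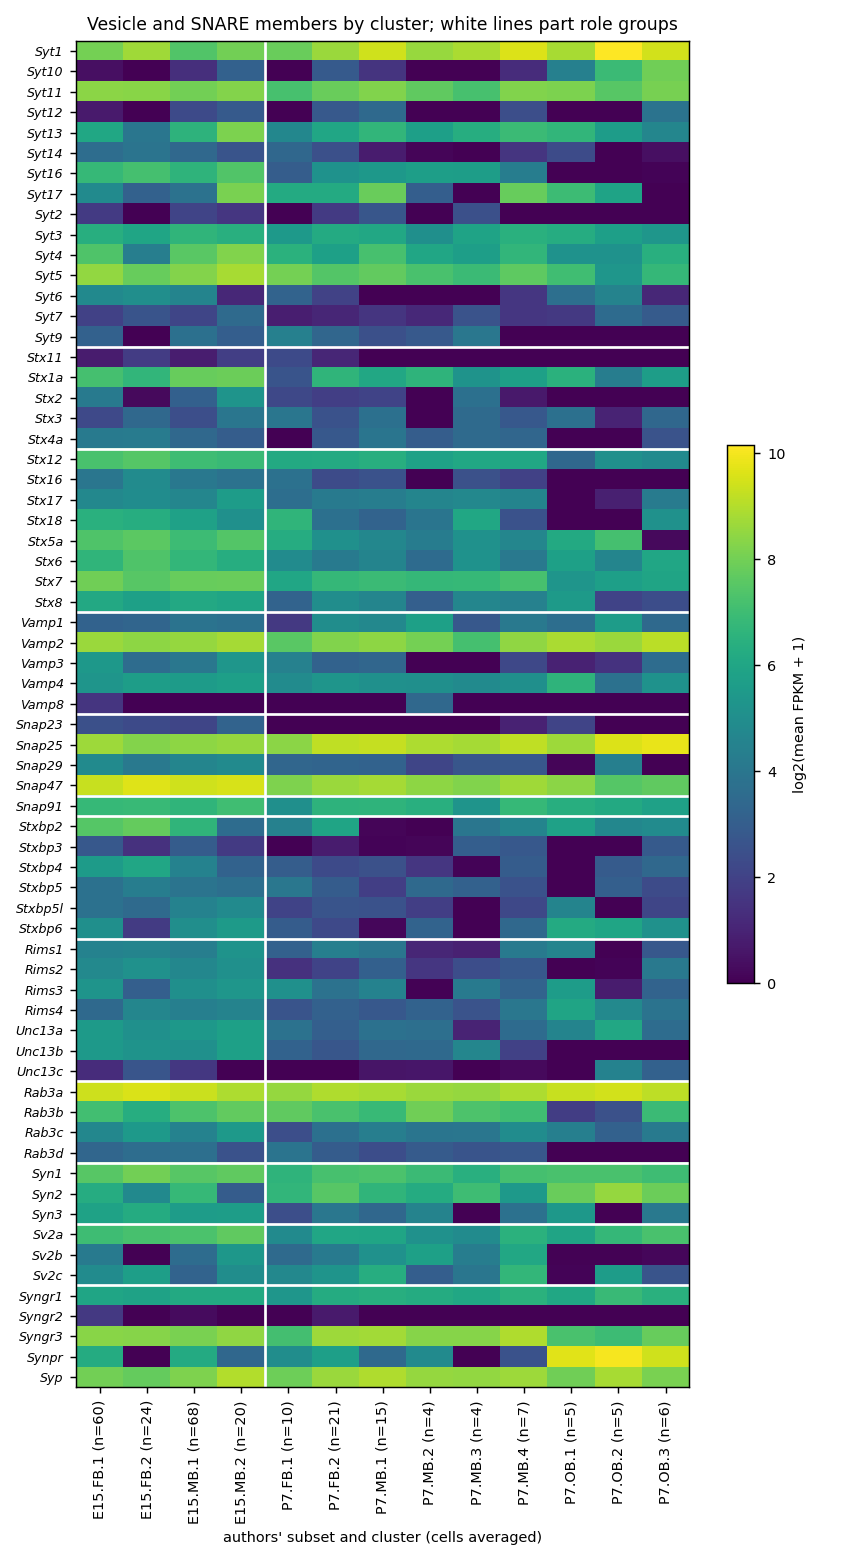
Heat map of log2(mean FPKM + 1) for 66 of the 68 members with a mean of at least 1 FPKM in some group (rows, parted by role) in the 13 clusters that the authors named in the labels (columns, with the number of cells averaged). The core genes such as Vamp2, Snap25 and Rab3a are bright in all columns, while Synpr is brightest in the 3 OB clusters and Sv2b is dark there.

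The olfactory bulb cells stood out by Synpr, which encodes synaptoporin, a vesicle protein of the synaptophysin family (ENSMUSG00000056296.16; chr14:13284780-13616340, plus strand, in mm10 coordinates of GENCODE M21). Synpr in the 16 P7 OB cells ran from 0.653 FPKM in the lowest cell over a median of 844 to 1872, with a mean of 844 ± 564 (SD). In 30 P7 MB cells the lowest and the median were 0 and the highest 111 (mean 9.92 ± 26.6), and in 31 P7 FB cells the values were 0, 1.13 and 399.8 (mean 45.1 ± 89.7). Of the 16 OB cells, 15 lay above the highest MB cell and 11 above the highest FB cell, so the groups overlapped. The mean of MB was 77.4-fold lower than that of OB on the scale of log2(mean + 1), and the mean of FB 18.3-fold lower. On the exchanged plates Synpr reached 1 FPKM in 51 of 52 OB cells, 10 of 45 MB cells and 23 of 50 FB cells, and the log2 ratio of MB to OB was -5.45 and -5.99 there, against -6.27 on the plate used by name.

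Syt10, a synaptotagmin known from regulated release of IGF-1 in olfactory bulb neurons, followed the same order (ENSMUSG00000063260.2; chr15:89782393-89841860, minus strand). Its values in P7 OB ran from 0 over a median of 99.4 to 656 FPKM (mean 136 ± 162, SD, n = 16), and 12 of 16 cells reached 1 FPKM. The median was 0 in P7 MB (highest cell 20.3, 3 of 30 cells) and in P7 FB (highest cell 45.6, 4 of 31 cells). The 4 OB cells listed at 0 overlapped with the other groups, and 11 OB cells lay above every FB cell. Over all 3 P7 plates, with the 2 exchanged, 52 of 68 OB cells held Syt10 (76.5%, 95% interval 64.6 to 85.9%, exact, counting error only), 16 of 75 MB cells and 7 of 81 FB cells.

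Syn2, which encodes a synapsin, was also highest in OB, in smaller steps. Its lowest, median and highest values were 0.578, 276 and 538 FPKM in P7 OB, 0, 55.1 and 333 in P7 MB, and 0, 110.1 and 593 in P7 FB. The ranges overlapped throughout. The means were 277 ± 167, 86.1 ± 78.05 and 158 ± 142 FPKM, so MB was 3.19-fold below OB while FB, 1.75-fold below, missed the 2-fold limit. The MB to OB log2 ratio was -1.68, -1.51 and -1.43 on the 3 plates. Syn2 encloses Timp4 on the other strand, with exons that overlap, and Smart-Seq2 reads carry no strand.

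Of the further members past 2-fold higher in OB than in both other regions, 4 are given here. Stxbp6 (amisyn, a SNARE-motif protein that binds syntaxin) had a mean of 54.7 ± 113 FPKM in OB, 3.50 ± 11.6 in MB and 4.68 ± 14.9 in FB. Its OB mean rested on 6 of 16 cells, and its highest cell was at 361 FPKM. Rims4, a short Rim isoform gene, had a mean of 32.2 ± 40.7 FPKM in OB against 8.30 ± 8.25 in MB and 6.99 ± 12.8 in FB. The means of Unc13a (Munc13-1, a priming factor) were 32.05 ± 46.4, 10.7 ± 14.21 and 9.37 ± 18.8 FPKM in the same order. Syt6 reached 1 FPKM in 3 OB cells only, and without the highest cell its FB to OB log2 ratio moved from -1.07 to -0.20. The ranges of these 4 genes overlapped between the regions. On the exchanged plates Rims4 was under 2-fold in MB against OB on 1 plate (log2 ratio -0.32) and Unc13a on the other (-0.87). Stxbp2 was higher in OB than in MB only, at 36.2 ± 74.4 against 7.32 ± 24.6 FPKM.

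The reverse pattern was led by Sv2b, a vesicle glycoprotein gene of the SV2 family (ENSMUSG00000053025.13; chr7:75114894-75309262, minus strand). No P7 OB cell reached 1 FPKM: the values ran from 0 over a median of 0 to 0.331. In P7 MB they ran from 0 over 37.5 to 123 FPKM (mean 42.2 ± 34.1, 26 of 30 cells) and in P7 FB from 0 over 0 to 67.5 (mean 14.7 ± 20.6, 15 of 31 cells). 26 MB cells lay above every OB cell. With the exchanged plates, Sv2b was at 1 FPKM or more in 0 of 68 OB cells, which allows a share of up to 4.41% by the floor of 3 cells (the exact 95% bound is 5.28%), against 65 of 75 MB cells (86.7%, 95% interval 76.8 to 93.4%) and 30 of 81 FB cells (37.04%, 95% interval 26.6 to 48.5%). Its log2 ratio of MB to OB was 5.32, 4.29 and 4.29 on the 3 plates. A non-coding gene, 1500012K07Rik, overlaps its exons on the other strand.

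Syt16, a synaptotagmin relative without a transmembrane segment, was close to 0 in OB as well. The highest of the 16 OB cells was at 0.380 FPKM, while P7 MB had a median of 22.5 and a highest cell of 103 (mean 38.4 ± 33.1) and P7 FB a median of 4.30 and a highest cell of 130.4 (mean 25.8 ± 36.5). On the exchanged plates 6 of 52 OB cells reached 1 FPKM, up to 40.1, so the log2 ratio of MB to OB fell from 5.26 to 2.15 and 2.38. Unc13b (Munc13-2) was listed at 0 in all 16 OB cells, against a mean of 10.2 ± 13.5 FPKM in MB and 6.45 ± 18.7 in FB, and 1 of 52 OB cells on the exchanged plates held it. Syt9, another calcium sensor of release, was listed at 0 in the 16 OB cells and in all 52 OB cells of the exchanged plates, while 27 of 81 FB and 18 of 75 MB cells reached 1 FPKM. Syt2 behaved alike, with 0 of 68 OB, 11 of 81 FB and 16 of 75 MB cells. Syt2 was named after its values had been seen.

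Members of other roles were also lower in OB. Rab3b had a mean of 48.1 ± 75.9 FPKM in OB, 142 ± 125 in MB and 168 ± 128 in FB, and the ranges overlapped. Within OB it was split by cluster: all 6 cells of OB.3 held 32.03 to 261 FPKM, and the highest of the 10 cells of OB.1 and OB.2 was at 14.97. The OB.3 cells also had more genes in the labels, with a median of 4673.5 against 3185 in OB.1 and 2891 in OB.2. Stx12, an endosomal syntaxin, had means of 23.9 ± 37.4, 72.5 ± 42.9 and 72.6 ± 71.4 FPKM in OB, MB and FB, and Stx4a, a syntaxin of constitutive exocytosis, 1.89, 11.6 and 4.09. Against FB alone, Syt5 (94.3 in OB and 202 in FB), Vamp3 (5.02 and 12.3) and Stx18 (12.8 and 40.6) were lower in OB, whereas Syt1 (762 and 345) was higher. Stx6 was past 2-fold higher in OB than in both regions (47.9 FPKM against 21.4 in MB and 20.8 in FB), but without its highest cell the log2 ratios of MB and FB to OB were -0.83 and -0.87. Stx18 shares exons with Nsg1 on the other strand and some of its values lay at a vanishing fraction of 1 FPKM, so its level is uncertain. Sv2c had means of 16.8 ± 30.6 FPKM in OB and 67.04 ± 65.9 in MB, and Syt17 of 57.3 ± 138 and 165 ± 167, with overlapping ranges. Both stayed past 2-fold on the exchanged plates, at log2 ratios of 1.35 and 2.09 for Sv2c and 1.66 and 2.54 for Syt17. Stx12 did not, at 0.80 and 0.58, and Vamp3 in FB against OB was close to 0 there, at 0.02 and 0.09.

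By count, 18 of 66 measured members had a P7 MB mean 2-fold or more above that of P7 OB and 13 one 2-fold or more below, where a gene is measured if either group mean is 1 FPKM or more. The background over all protein-coding features was 29.4% higher and 19.4% lower, so the members' shares were near it. For P7 FB against P7 OB 17 of 66 members were higher (background 30.6%) and 12 lower (background 17.2%). The median log2 ratio was 0.19 for the members and 0.14 for all features in MB against OB, and 0.11 and 0.23 in FB against OB. With FB against OB shifted by the median of all features, 13 members were higher (background 25%) and 17 lower (background 21.8%). The comparisons with OB share its 16 cells, whose labels gave fewer genes per cell than those of the other groups, and the part of that in the counts was not tested. With log2 values averaged over cells in place of FPKM, the balance moved to 26 higher (background 37.1%) and 6 lower (background 3.73%) in MB against OB, and to 19 (background 27.5%) and 9 (background 4.74%) in FB against OB.

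**Figure D2:**
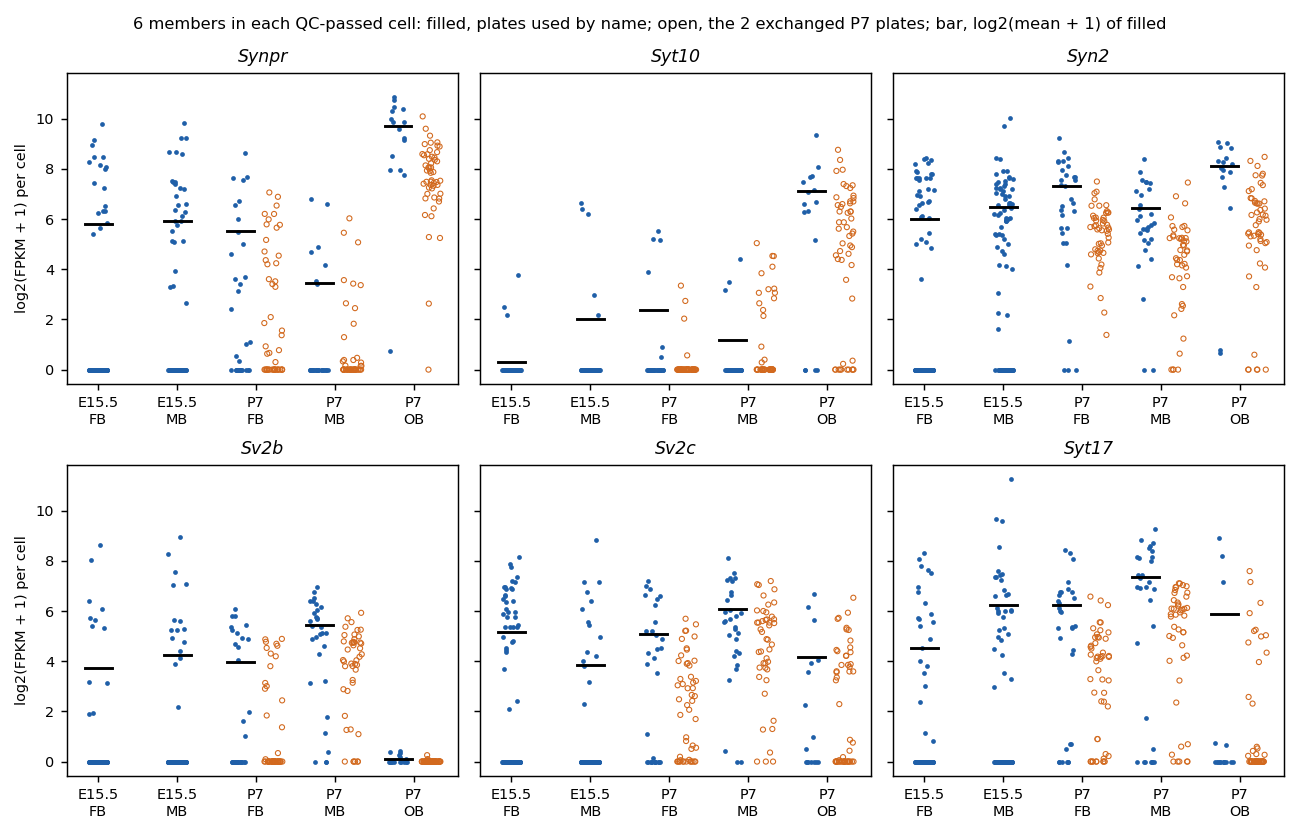
Each point is a cell that passed quality control, at log2(FPKM + 1), for 6 members in the 5 groups; filled points are the cells used, open points the 2 exchanged P7 plates (their FPKM totals are lower), and bars the log2 of the mean + 1 of the filled points. Synpr and Syt10 are high in OB on filled and open points, and all Sv2b points of OB lie below 1.

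**Figure D3:**
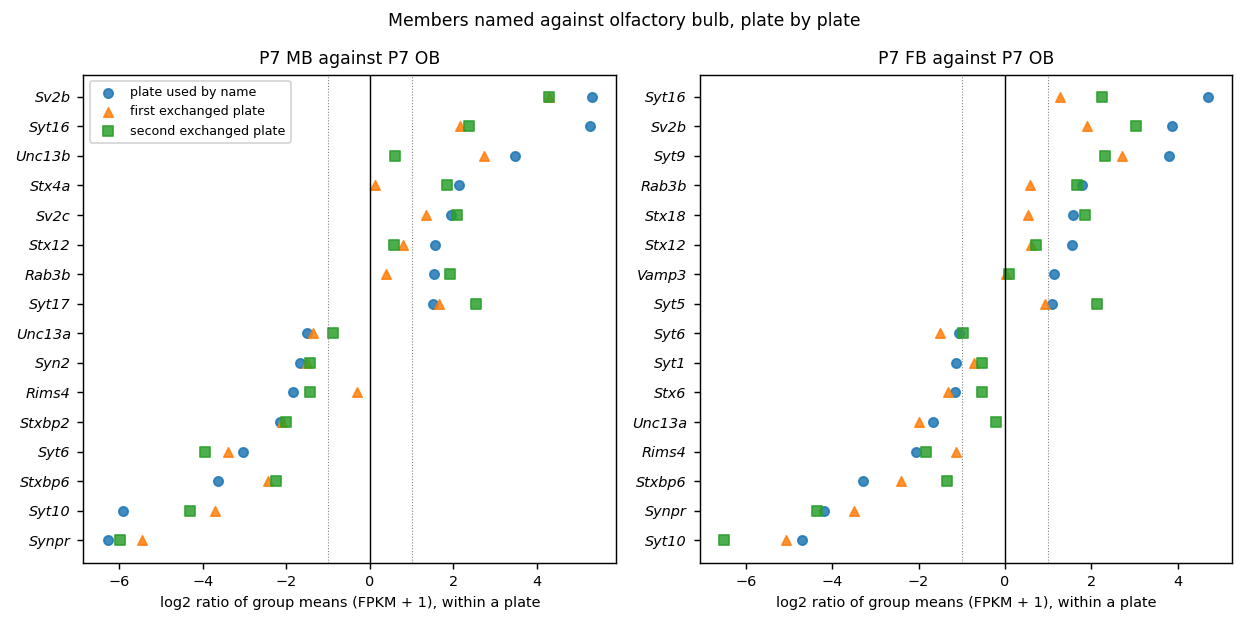
Log2 ratios of P7 MB (left) and P7 FB (right) to P7 OB for the members named by the rule, computed within each of the 3 P7 library plates (circle, plate used by name; triangle and square, exchanged plates). The rule took only genes with the same direction on all 3 plates, so that agreement is not a result. Synpr lay between -6.27 and -5.45 in MB against OB, and dotted lines mark 2-fold.

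Sv2b was near 0 in OB. Sv2c was past 2-fold lower in OB than in MB, but not lower by that much than in FB. Over all 3 P7 plates, with the 2 exchanged, 32 of 68 OB cells held Sv2c. The sequences before the start sites of Synpr and Syt10, both high in OB, and of Sv2b and Sv2c are shown beside these patterns. They are the 250 bases upstream of the most 5′ RefSeq start of each gene (build GRCm38.p6, 5′ to 3′ on the strand of the gene): Synpr chr14:13284530-13284779, plus strand; Syt10 chr15:89841861-89842110, minus strand; Sv2b chr7:75309263-75309512, minus strand; Sv2c chr13:96132578-96132827, minus strand. Capitals mark matches, on either strand, to the letters GGGCGG of the Sp1-type promoter element known as a GC box. They also mark matches to the letters CCAAT, an element named after them, and to the core promoter element known as a TATA box, searched as TATAAA.
Synpr: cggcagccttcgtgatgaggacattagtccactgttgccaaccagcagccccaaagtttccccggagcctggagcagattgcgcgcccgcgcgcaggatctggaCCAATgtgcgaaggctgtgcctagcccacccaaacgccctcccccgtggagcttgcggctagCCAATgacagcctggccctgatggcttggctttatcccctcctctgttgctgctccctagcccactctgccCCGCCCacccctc
Syt10: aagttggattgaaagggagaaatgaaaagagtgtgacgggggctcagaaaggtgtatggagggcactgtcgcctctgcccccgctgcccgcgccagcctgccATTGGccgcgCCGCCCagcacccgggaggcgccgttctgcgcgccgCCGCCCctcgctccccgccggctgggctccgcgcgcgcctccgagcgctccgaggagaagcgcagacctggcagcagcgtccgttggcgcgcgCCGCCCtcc
Sv2b: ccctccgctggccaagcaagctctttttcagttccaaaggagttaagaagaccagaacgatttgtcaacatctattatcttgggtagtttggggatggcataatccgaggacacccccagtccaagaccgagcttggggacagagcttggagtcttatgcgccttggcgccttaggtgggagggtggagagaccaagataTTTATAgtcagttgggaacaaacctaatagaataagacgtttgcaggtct
Sv2c: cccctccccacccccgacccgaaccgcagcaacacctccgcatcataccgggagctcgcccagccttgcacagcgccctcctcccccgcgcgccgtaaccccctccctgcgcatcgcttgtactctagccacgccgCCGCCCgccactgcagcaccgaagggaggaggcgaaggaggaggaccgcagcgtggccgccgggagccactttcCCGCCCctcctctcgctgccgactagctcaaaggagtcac
The Synpr window held 2 CCAAT matches and 1 GC box, the Syt10 window 1 CCAAT and 3 GC boxes, the Sv2c window 2 GC boxes and the Sv2b window 1 TATA match and no GC box. The Synpr window overlaps an exon of Gm5087, a processed transcript without a coding sequence. Over the 32851 windows in the table a GC box was present in 32.7%, a CCAAT box in 33.8% and a TATA box in 12.4%. These windows were not filtered for protein-coding genes, whereas all members are protein-coding, so the 2 sets are not matched. Of the 74 members, 58 had windows, 75 in all, and 62.7%, 30.7% and 6.67% of these held the same 3 motifs. The homeodomain core TAATTA, the E-box sequence CAGCTG and the cyclic AMP response element TGACGTCA, also searched on both strands, occurred in 1.33%, 21.3% and 2.67% of the member windows and in 4.84%, 13% and 1.55% of all windows, and in none of the 4 windows shown. The median GC content was 60.4% in member windows and 52.4% in all. A match is a string of letters, not a site, and no binding was measured.

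In the P7 midbrain, Sv2b and Syt17 were higher than in the forebrain. Sv2b had a mean of 42.2 ± 34.1 FPKM in MB and 14.7 ± 20.6 in FB (2.74-fold), with log2 ratios of 1.46, 2.38 and 1.24 on the 3 plates. Syt17, a synaptotagmin-like gene (B/K protein) tied to membrane traffic and neurite growth, ran from 0 over 122 to 620.3 FPKM in MB (mean 165 ± 167) and from 0 over 41.6 to 344 in FB (mean 73.6 ± 89.7). The ranges overlapped, and the log2 ratios were 1.15, 1.91 and 1.10.

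Stxbp2, the Munc18-2 gene of secretory cells outside the synapse, was lower in MB. It ran from 0 over a median of 0 to 123 FPKM in MB (5 of 30 cells at 1 or more, mean 7.32 ± 24.6) and from 0 over 0 to 377 in FB (12 of 31 cells, mean 48.1 ± 84.5), 5.91-fold apart, with log2 ratios of -2.56, -1.67 and -2.62. Synpr (9.92 against 45.1 FPKM), Stx18 (16.03 against 40.6) and Vamp3, a VAMP of recycling endosomes (5.45 against 12.3), were lower as well. Synpr was at 1 FPKM or more in 7 of 30 MB and 17 of 31 FB cells and Vamp3 in 10 and 10, and the ranges overlapped. In all, 5 of 65 measured members passed 2-fold upward in MB (background 10.2%) and 9 lower (background 13.1%). After a shift by the median of all features the split was 8 higher (background 11.4%) and 8 lower (background 11.5%). With log2 values averaged over cells it turned to 12 higher (background 12.2%) and 2 lower (background 2.05%).

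Within the P7 midbrain the members differed between the authors' 4 clusters, in which Slc6a3, the dopamine transporter gene, had means of 762 FPKM (MB.1, 15 cells), 0.337 (MB.2, 4 cells), 246 (MB.3, 4 cells) and 3340.0 (MB.4, 7 cells). The clusters were made from the expression of these cells, so their differences are a description, and the genes here were picked after their values were seen. Genes per cell in the labels had medians of 6014, 5877, 5194 and 7490 in MB.1 to MB.4 on the plate used. The part of that in the shares of cells was not tested. Syt17 averaged 225 FPKM in MB.1 and 220.1 in MB.4, with 13 of 15 and 7 of 7 cells at 1 or more. It averaged 7.10 in MB.2, where the highest cell was at 25.6, and was listed at 0 in the 4 cells of MB.3. With the exchanged plates 36 of 39 MB.1, 8 of 11 MB.2, 0 of 10 MB.3 and 15 of 15 MB.4 cells held Syt17. Sv2c, the SV2 gene known from the basal ganglia, had its higher means in the same clusters: the lowest of the MB.1 and MB.4 cells was at 11.98 FPKM, and the means were 79.1 and 105 against 7.21 in MB.2 and 14.9 in MB.3, whose highest cell, at 20.4, overlapped with MB.1.

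Sv2b did not follow that split: its mean was 66.97 FPKM in MB.4 (all 7 cells between 30.1 and 106), 53.1 in MB.2, 33.98 in MB.1 and 18.7 in MB.3. Syn2 was lowest in MB.4, at 42.8 FPKM, against 98.3, 75.7 and 127 in MB.1 to MB.3, and its ranges overlapped. Vamp1, a second neuronal synaptobrevin, had its highest P7 mean in MB.2 (53.9 FPKM), and 10 of 11 MB.2 cells of all plates held it, against 4 of 10 in MB.3. Stxbp2 was at 1 FPKM or more in 1 of 15 MB.1 cells and in 3 of 39 with the exchanged plates.

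The 3 olfactory clusters also differed. Genes per cell in the labels had medians of 3185, 2891 and 4673.5 in OB.1, OB.2 and OB.3 on the plate used. The part of that in the shares of cells was not tested. Syt10 was present in 7 of 20 OB.1 cells of all plates, 30 of 33 OB.2 cells and 15 of 15 OB.3 cells, whereas Synpr was present in 18, 33 and 15 of the same cells. In OB.1, Th had a mean of 265 FPKM, and in OB.2 and OB.3 2738 and 2098. Dcx, a marker of immature neurons, had a mean of 392 FPKM in OB.1 against 91 and 50.98. Sv2c averaged 47.5 FPKM in OB.2, 5.17 in OB.3 and 0.0848 in OB.1, where no cell of the plate used reached 1 FPKM. Syt17 was at 1 FPKM or more in 7 of 20, 8 of 33 and 1 of 15 cells of all plates in OB.1, OB.2 and OB.3.

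At E15.5 the midbrain mean exceeded that of the forebrain for Syt13 and Syt17, and fell below it for Stxbp2, Stxbp4 and Sv2c. Syt13, a synaptotagmin that does not bind calcium, ran from 0 over 78.5 to 1488 FPKM in MB (mean 136 ± 216, n = 88) and from 0 over 2.73 to 422 in FB (mean 51.4 ± 92.2, n = 84), 2.62-fold apart. Syt17 had a median of 0 in both and means of 73.8 ± 286 and 22.04 ± 60.5 FPKM. The ranges overlapped, and the log2 ratios on the 2 plates were 1.32 and 1.46 for Syt13 and 1.89 and 1.14 for Syt17. The means of Stxbp2 were 78.98 ± 212 in MB and 188 ± 313 FPKM in FB, of Stxbp4 18.8 ± 32.6 and 51.4 ± 112, and of Sv2c 13.4 ± 53.9 and 35.1 ± 59.04. Synpr (59.03 and 54.3 FPKM) and Syn2 (87.6 and 62.4) were less than 2-fold apart.

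By count 4 of 68 measured members passed 2-fold upward in E15.5 MB (background 7.65%) and 5 lower (background 8.17%). With each cell rescaled to the same total FPKM of 455852, the numbers were 5 (background 4.57%) and 2 (background 3.46%), and after a shift by the median of all features 6 (background 9.05%) and 5 (background 6.59%). The median log2 ratio of all features was -0.12 before and -0.02 after rescaling, and that of the members 0.01 and 0.15. With log2 values averaged over cells, 9 were higher (background 5.57%) and 2 lower (background 1.12%), so the balance of the directions depends on how cells are averaged.

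Members also differed between the E15.5 clusters of a region. These clusters were made from the expression of the same cells, so their differences are a description. The genes named for them were picked after their values were seen. In the midbrain, Th averaged 3780.0 FPKM in MB.2 (20 cells) and 29.6 in MB.1 (68 cells), and Slc6a3 1005 and 2.61. Syt17 averaged 280.0 FPKM in MB.2, with 14 of 20 cells at 1 or more and a highest cell of 2434, against 13.1 in MB.1, with 17 of 68 cells and a highest of 150.2. The log2 ratio was 4.32, or 3.63 with rescaled cells, and 5.10 and 2.11 on the 2 plates. Syt13 was also higher in MB.2, at 285 against 92.6 FPKM. Lower in MB.2 were Syn2 (6.80 against 111 FPKM, 5 of 20 against 53 of 68 cells), Synpr (9.64 against 73.6), Stxbp2 (10.99 against 98.98) and Syt6 (1.19 against 23.1). The ranges of all these genes overlapped between the clusters.

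In the E15.5 forebrain, Synpr and Sv2b were listed at 0 in all 24 cells of FB.2, while 18 and 12 of the 60 cells of FB.1 held them, with means of 75.99 and 16.9 FPKM. Syt4, a synaptotagmin of dense-core vesicles, averaged 19.5 FPKM in FB.2 and 161 in FB.1 (log2 ratio -2.98, and -2.44 rescaled). Stxbp6 (2.38 against 32.5 FPKM), Stx2, a syntaxin also called epimorphin (0.205 against 17.5), Rims3 (7.32 against 37.2), Syt13 (14.98 against 65.98) and Syn2 (27.3 against 76.4) were lower in FB.2 on both plates. Rims4 was higher there, at 24.3 against 10.03 FPKM. The genes per cell in the labels had a median of 5028 in FB.2 and 5859.5 in FB.1.

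**Figure D4:**
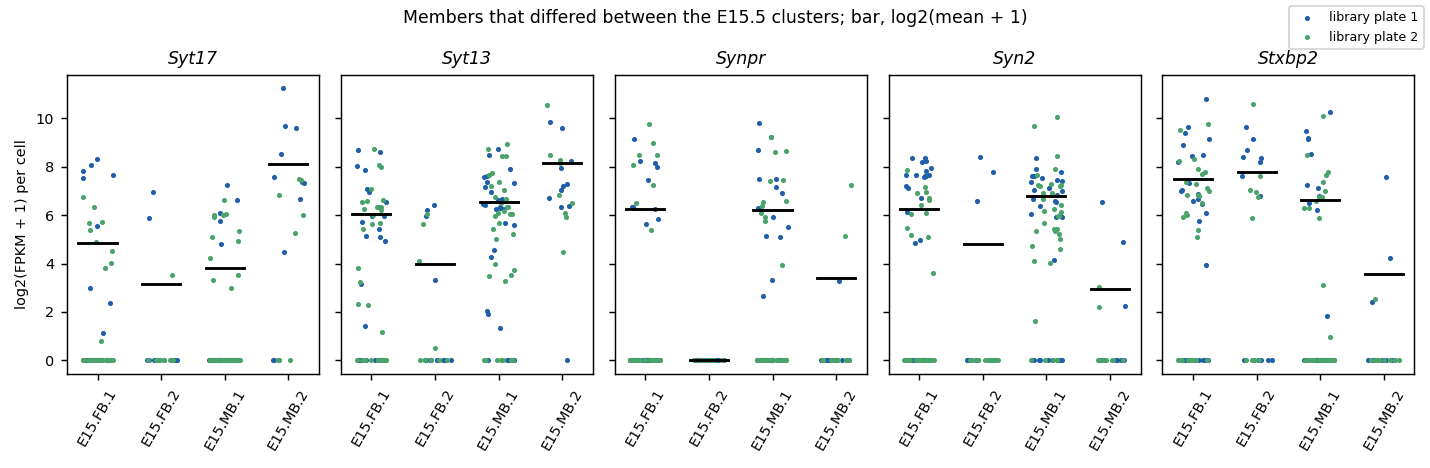
Log2(FPKM + 1) of each E15.5 cell for 5 members in the authors' 4 E15.5 clusters, colored by library plate, with bars at the log2 of the mean + 1. Syt17 and Syt13 are highest in E15.MB.2, where Syn2, Synpr and Stxbp2 are mostly at 0, and Synpr is at 0 in every E15.FB.2 cell.

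As counts, 11 of 66 members were at least 2-fold higher in E15.MB.2 than in E15.MB.1 (background 12.1%) and 8 lower (background 15.6%), or 3 (background 6.24%) and 7 (background 11.8%) with rescaled cells. In E15.FB.2 against E15.FB.1, 4 of 66 were higher (background 11%) and 15 lower (background 20.4%), or 1 (background 7.16%) and 11 (background 14.6%) rescaled. In P7.FB.1 against P7.FB.2, 10 of 63 were higher (background 15.8%) and 17 lower (background 30.9%), or 10 (background 16.5%) and 16 (background 28%) rescaled. Since the clusters were built from expression, nothing is read from these counts.

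The P7 forebrain clusters differed in the syntaxin of the neuronal complex. Stx1a averaged 5.17 FPKM in FB.1 (10 cells, highest 37.9) and 98.7 in FB.2 (21 cells, highest 231), with log2 ratios of -4.01, -2.50 and -2.48 on the 3 plates. Vamp1 (2.20 against 30.9 FPKM), Syt16 (6.97 against 34.7), Syngr3 (139.9 against 405) and Sv2a (28.4 against 63.3) were lower in FB.1 on all 3 plates, some by little on the exchanged ones. FB.1 cells had a median of 4520.5 genes in the labels and FB.2 cells 5968.

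Between the ages most genes had lower FPKM at P7, as the totals per cell did, so the comparison is also given with each cell rescaled to the same total. As deposited, 6 of 68 members were at least 2-fold higher at P7 in FB (background 6.5%) and 28 lower (background 58.7%), and 5 of 67 were higher in MB (background 5.08%) and 28 lower (background 58.3%). The median log2 ratio was -0.81 for the members and -1.20 for all features in FB, and -0.86 and -1.19 in MB. With rescaled cells 13 of 66 members were higher in FB (background 12.9%) and 12 lower (background 22.4%), and 15 of 66 higher in MB (background 10.4%) and 13 lower (background 21.4%). The rescaled median was 0.33 for the members and -0.23 for all features in FB, and 0.03 and -0.26 in MB. After a shift by the median of all features, 20 members were higher in FB (background 18.9%) and 7 lower (background 16.3%), and 16 in MB (background 16.8%) and 7 lower (background 14.3%).

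The members past 2-fold higher at P7 after rescaling included Syt1, Snap25, Syngr3 and Syp of the common core. In FB, Syt11, Vamp2, Snap47, Rab3a and Syn1 of that core were not past 2-fold in either direction. Of the Rims and Unc13 genes, 0 were higher and 4 lower in FB. The rescaled log2 ratio of P7 to E15.5 in FB and MB was 1.24 and 2.73 for Syt1, 1.40 and 1.69 for Snap25, and 1.66 and 1.51 for Syp. Vamp1 (2.08 and 1.89), Syt17 (2.58 and 2.34), Syn2 (2.32 and 1.01), Syngr1 (1.27 and 1.25) and Syngr3 (1.10 and 1.52) were higher in both regions. Within E15.5 MB, however, Syt17 averaged 280 FPKM in MB.2 and 13.11 in MB.1. The part of the cluster mix in the age ratios was not tested. Sv2c (0.96 and 3.35) and Sv2b (0.99 and 2.32) passed 2-fold in MB. As deposited, Syt1 in MB went from 187 ± 231 FPKM at E15.5 to 640.0 ± 376 at P7, and Sv2c from 13.4 ± 53.9 to 67.04 ± 65.9. At E15.5 the median MB cell was at 113 and 0 FPKM for these genes and at P7 at 606 and 46.9, and the ranges overlapped.

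Past 2-fold lower at P7 in both regions on the rescaled scale were Stxbp4, Stxbp6, Unc13a, Stx6, Syt6, Syn3 and Snap23. Stxbp6 had rescaled log2 ratios of -1.26 in FB and -2.0 in MB, Stxbp4 -1.79 and -1.29, Stxbp2 -0.98 and -2.09, and Syt6 -1.16 and -2.74. Rims2, an active zone Rim, had -1.90 and -0.95, and the priming factors Unc13a -1.02 and -1.09 and Unc13b -1.54 and -0.79. The ratios of Stx6, a syntaxin of the trans-Golgi network, were -1.29 and -1.20, of Stx5a, of the early Golgi, -0.71 and -1.24, of Syn3, whose exons overlap Timp3 on the other strand, -1.34 and -1.14, and of Syt16 -1.15 and -0.56. Stxbp5l, a tomosyn gene, had -0.38 and -1.12. Unc13a as deposited went from 42.2 ± 50.2 to 9.37 ± 18.8 FPKM in FB and from 44.5 ± 58.5 to 10.7 ± 14.21 in MB. The median cell's summed immature neuron markers went from 1177 to 154.3 FPKM in FB and from 1031 to 201.4 in MB, and their part in the age differences was not tested. On the exchanged plates, whose totals are lower still, the higher means at P7 as deposited turned lower for Syn2 in FB, Syt1 in MB, Syt9 in FB and Syt17 in both regions on at least 1 plate.

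Synpr differed with age in the midbrain. Its mean was 59.03 ± 149 FPKM at E15.5, with 29 of 88 cells at 1 or more. At P7 it was 9.92 ± 26.6, with 7 of 30 cells, and the rescaled log2 ratio was -1.78. The E15.5 mean joined unlike clusters, with 73.55 FPKM in E15.MB.1 and 9.64 in E15.MB.2. The part of this mix in the age difference was not tested. In the forebrain the Synpr means were 54.3 ± 145 and 45.1 ± 89.7 FPKM and the rescaled log2 ratio 0.64. Whether the regions differ in this was not tested.

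**Figure D5:**
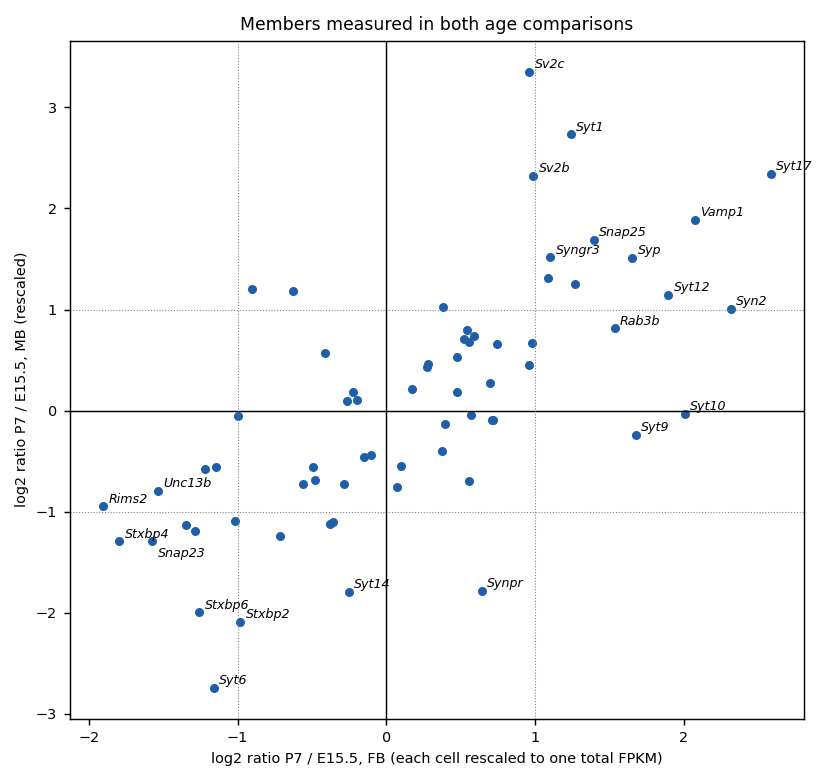
Rescaled log2 ratios of P7 to E15.5 in FB (horizontal) and MB (vertical) for the members measured in both comparisons, with those farthest from 0 and a few others named; dotted lines mark 2-fold. Syt17, Vamp1 and Syn2 lie at the upper right, Stxbp6, Stxbp4 and Syt6 at the lower left, and Synpr and Syt9 to the right of 0 but below 0 on the vertical axis.

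Genes that work beside the members were read from 5 lists. Their counts stand beside the shares of all features given above, which were 29.4% higher and 19.4% lower for P7 MB against OB, 30.6% and 17.2% for P7 FB against OB, 10.2% and 13.1% for P7 MB against FB, and 7.65% and 8.17% at E15.5. For age with rescaled cells they were 12.9% and 22.4% in FB and 10.4% and 21.4% in MB. Of 17 genes for fusion regulators, 7 passed 2-fold upward in P7 MB against P7 OB (among them Cadps2, Doc2b, Prrt2, Rph3a, Sncg and Tprgl) and 0 lower, with a median log2 ratio of 0.33 against 0.14 for all features. At E15.5 the list had 4 genes higher in MB than in FB (among them Doc2a, Sncb and Sncg) and 0 lower. Of 18 active zone scaffold genes, 3 were higher in P7 MB than in P7 FB (Apba1, Bsn and Erc2) and 1 lower (Ppfia1), and against OB 5 were higher in MB and 1 lower. Of 22 endocytosis genes 1 passed 2-fold in P7 MB against P7 FB (Dnajc6, higher), and 2 were higher and 1 lower against OB. Of 15 subunits of the vesicular proton pump 0 passed 2-fold between MB and FB at either age, and 1 was higher and 2 lower in P7 MB than in P7 OB. Of 7 vesicular transporters 6 were measured in P7 MB against P7 FB, with Slc17a6, Slc18a1 and Slc18a2 higher and Slc18a3 and Slc32a1 lower. After rescaling, 5 fusion regulators were higher at P7 than at E15.5 in FB and 4 in MB, and 0 lower in either. For the scaffold genes the numbers were 3 higher and 6 lower in FB, and 2 higher and 5 lower in MB. In P7 FB against P7 OB, 4 fusion regulators were higher and 1 lower.

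The remaining members are given by the range of their group means. Among the synaptotagmins, Syt3, Syt4 and Syt5 had means of 53.3 to 337 FPKM in every group, Syt12, Syt14 and Syt7 0.476 to 12.2, and Syt2 at most 3.42. Syt12 had exons overlapped by a gene on the other strand, as did 19 of the 74 members. Stx3, Stx11 and Stx2 stayed at or below 14.3 FPKM, Stx8, Stx16 and Stx17 at or below 67.9, Snap23 and Snap29 at or below 24.8, and Stxbp3 and Stxbp5 at or below 14.7. Rims1 and Rims3 had means of 9.49 to 34.01 FPKM, Unc13c at most 9.80 (P7 OB), Rab3c 9.80 to 30.4 and Rab3d at most 10.5, listed at 0 in the 16 P7 OB cells. Sv2a had means of 52.03 to 166 FPKM, Syn1 131 to 201 and Syngr1 60.4 to 89.2. Of these, Syt4, Stx16 and Stx17 were among the members past 2-fold higher in P7 MB than in P7 OB, Syt5, Stx16 and Stx17 among those higher in P7 FB, and Sv2a among those lower in P7 FB. Vamp8 and Syngr2 were found in at most 2 cells of any group.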

How the data were processed

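RNA of single EGFP-sorted cells was amplified by Smart-Seq2, which does not mark strand, with 20 preamplification and 14 enrichment cycles, per the labels' protocols. The authors deposited FPKM per feature, made with HISAT2 and Cuffnorm on mm10, per the submitters' processing notes; versions and read depth are not given in the sources used here. Groups, clusters, quality control and genes per cell came from the labels. A column was matched to its label by name, and the number of features at 1 FPKM or more was compared with the labelled number: r was 0.996 to 0.999 on 3 plates, and -0.034 and -0.052 on the other 2, where it was 0.999 after the exchange. These 2 plates were kept out of the main values.

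Ratios are log2 of (mean FPKM + 1) between groups, on features with a mean of at least 1 FPKM in either group, called at 2-fold. This scale understates changes of low genes. A cell held a gene at 1 FPKM or more, and intervals are exact Clopper-Pearson at 95%. Both cover counting of cells only. Rescaled cells were set to a total of 455852 FPKM. No doublet caller was run. The text names members with a mean of at least 10 FPKM, 2-fold and the same direction on every plate (for age, on both E15.5 plates), up to 8 per direction, together with Synpr, Syn2 and the 2 most abundant genes of each role. Some genes that the rule or the lists name are not reported here. Other members are named as descriptions, chosen after their values were seen. The members and lists were chosen with earlier results of these data known. Alternatives were another pseudocount (0.1 FPKM), the filter, means of logs, the highest cell left out, rescaling, cells of 3000 to 6500 genes and single plates. The formula of the log2 ratio, not the scripts as a whole, was tried on simulated cells with abundant genes, so low genes were not covered. The scripts used Python 3.11.15, numpy 2.4.6, pandas 2.3.3, scipy 1.17.1 and matplotlib 3.10.9. Promoter windows came from a RefSeq table of GRCm38.p6.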

Additional observations from a re-analysis of the deposited data

Results flagged for a closer look

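Syt9, a calcium sensor of the synaptotagmin family, had opposite directions with age in the 2 regions on the P7 plate used. Its mean was higher at P7 than at E15.5 in FB (log2 ratio 1.08) and lower in MB (-1.01), a gap of 2.09 on the log2 scale. With each cell rescaled to the same total FPKM the ratios were 1.68 and -0.24. As deposited, the FB ratio was -0.0076 and -0.41 on the 2 exchanged plates, so the opposite directions rest on 1 P7 plate. With 1 pool of animals per group, the difference between the regions was not tested.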

How the results depend on the processing

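Each count of members past 2-fold (9 for E15.5 MB against FB, 14 for P7 MB against FB, 31 and 29 for P7 MB and FB against OB, 34 and 33 for P7 against E15.5 in FB and MB) was recomputed under other settings, and the following moved by over 1.5 times. A minimum mean of 10 FPKM, which tests fewer genes, gave 5 for E15.5 MB against FB, 8 for P7 MB against FB and 18 for P7 FB against OB. At E15.5 one of the 2 plates alone gave 14. All 3 P7 plates, with 2 exchanged, gave 9 for P7 MB against FB, with or without rescaling of the cells. Averaging log2 values over cells gave 21 for age in FB. Against E15.5, the exchanged plates alone gave 58 and 52 in FB, all lower, and 59 and 54 in MB, all but 1 lower on each plate, where 90.8% and 83% of all features were lower in FB and 90.4% and 85.2% in MB, and all 3 P7 plates with rescaled cells gave 19 and 21. The cause of these changes was not tested, but the exchanged plates have lower FPKM totals.

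Of 794 alternative values for 67 named ratios, 706 kept the direction and stayed past 2-fold, 81 fell under 2-fold and 7 reversed. These ratios had been chosen as past 2-fold with the same direction on every plate (for age, on both E15.5 plates). Single plates could therefore not reverse a ratio between groups of 1 age, and the number of reversals is low in part by that choice. The reversed values came from the exchanged plates: in FB against E15.5, Syt17 (-0.59), Syn2 (-0.85) and Syt9 (-0.0076 and -0.41), and in MB, Syt1 (-0.18) and Syt17 (-0.38 and -0.44). With 1 pool of animals per group no replicate could be left out. No paired analysis was possible because each group was 1 pool and the numbers of cells only name them. Groups of 1 age do share library plates, and the ratios within each plate are given with the results. Depth is not given with FPKM, so a gene listed at 0 was not detected, which does not show whether it was absent.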
